A study of Mus musculus with 6 samples.

Results

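The accessible chromatin around 10 mouse genes was examined: Ciita, Cd74, H2-Aa, H2-Ab1, H2-Eb1, H2-DMa, H2-DMb1, H2-DMb2, H2-Oa and H2-Ob. They encode the MHC class II antigen presentation machinery and its master regulator. Joining the overlapping peaks of 6 ATAC-seq lists (1 bp or more in common) gave 69171 merged regions. A region was taken as a member when, of the protein-coding genes in RefSeq (GRCm38, the assembly that mm10 names), the closest one, at most 100 kb away, was 1 of the 10. This chose 42 regions of the 65361 that had a gene. The rule used positions and no measured level, but the genes were chosen with earlier results of these data known. A region exists only where at least 1 list has a peak.

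ATAC-seq marks open DNA by letting a transposase insert sequencing adapters into it. There were 3 populations of bone marrow cells, each sorted from naive Adig mice of the Balb/c strain and each with 2 libraries of 2000 to 15000 cells. Adig mice carry a transgene in which regulatory DNA of Aire, the autoimmune regulator, drives GFP, so all groups share this transgene and the sorts read the reporter and not the Aire protein. The sort gate was AireGFP-B220-CD138+TACI+ for plasma cells. Immature B cells came from an AireGFP-B220+CD138-TACI-IgM+ gate. The pc-BMACs were AireGFP+B220-CD138+TACI+, which gives them the surface markers of the plasma cells plus the reporter. The labels give no age and do not tie a population's libraries to separate animals, so differences between them may be technical. The series asks how the open chromatin of these cells compares, and its title calls them antigen presenting cells.

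MHC class II molecules are pairs of an alpha and a beta chain that show peptides from engulfed material to CD4+ T cells. The invariant chain, encoded by Cd74, fills the groove until H2-DM exchanges its remnant for a peptide, and H2-O restrains H2-DM. CIITA, the protein of Ciita, binds no DNA itself: it is recruited by factors that sit on an X box and a Y box upstream of class II genes and Cd74. Ciita has several alternative promoters used by different cell types, and it is known to be silenced when B cells become plasma cells.

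Promoter sequence was compared over the genes that have it. RefSeq start windows (GRCm38.p6, 250 bases before to 50 after a start) were in the table for 7 of the 10 genes, 8 windows in all; Ciita, Cd74 and H2-Ab1 had no entry. The letters searched were ATTGG, the core of the Y box (CCAAT on the other strand), and AGNNAC, which resembles the start of the X box, followed on the same strand by ATTGG that begins 24 to 40 bases later. The following 85 bases of 6 windows are aligned on the Y box core and shown because the lists that cover them differ from gene to gene. Capitals mark the Y box core and, where it matched, the X box letters.
H2-Aa, chr17:34287847-34287931, minus strand: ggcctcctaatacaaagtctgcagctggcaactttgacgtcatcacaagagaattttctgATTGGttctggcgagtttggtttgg
H2-Eb1, chr17:34305748-34305832, plus strand: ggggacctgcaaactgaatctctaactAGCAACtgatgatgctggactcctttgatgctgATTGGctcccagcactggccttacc
H2-Ob, chr17:34238788-34238872, plus strand: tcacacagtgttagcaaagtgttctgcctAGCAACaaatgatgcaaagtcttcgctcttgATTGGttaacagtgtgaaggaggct
H2-DMb2, chr17:34145099-34145183, plus strand: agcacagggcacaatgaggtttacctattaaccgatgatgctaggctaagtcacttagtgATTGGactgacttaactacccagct
H2-DMb1, chr17:34153070-34153154, plus strand: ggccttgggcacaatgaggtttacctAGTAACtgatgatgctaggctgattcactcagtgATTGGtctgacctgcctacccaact
H2-Oa, chr17:34092276-34092360, plus strand: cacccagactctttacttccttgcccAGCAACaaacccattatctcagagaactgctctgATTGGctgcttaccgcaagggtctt

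ATTGG began between 43 and 90 bases before the RefSeq start in these 6 windows. The pair of motifs was found in the windows of H2-Oa, H2-DMb1, H2-Ob and H2-Eb1, with 34, 34, 31 and 33 bases from the first letter of AGNNAC to the first of ATTGG. Of all 32851 windows in the table, 37.4% held ATTGG on either strand and 3.01% held the pair. A match is a run of letters and not a measured binding site. H2-DMb1 and H2-DMb2, which encode alternative beta chains of H2-DM, had the same base at 71 of the 85 aligned positions (83.5%). Whether reads of these neighbours can be told apart was not tested. No source used here says how such reads were placed.

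Of the 6 stretches printed, those of 4 genes lay in peaks of every library and those of H2-DMb1 and H2-Oa did not. H2-DMa is not printed: its 1st window held no ATTGG, and its 2nd held one 198 bases before the start, with no AGNNAC pair and 0 bases in peaks of all 6 libraries. All 85 bases printed for H2-Aa, H2-Eb1, H2-Ob and H2-DMb2 were inside peaks of all 6 libraries. The stretch of H2-DMb1 was whole in plasma cells 1 and both immature B cell libraries and had 0 bases in plasma cells 2 and both pc-BMAC libraries. The stretch of H2-Oa had 85 bases in peaks of both immature B cell libraries, 78 in plasma cells 1, and 0 in plasma cells 2 and in pc-BMACs 1 and 2. Over the 8 member windows, 7 had a peak, 5 had one in all 6 libraries, and 2 (those 2 genes) had one in both immature B cell libraries and neither pc-BMAC library. Of the 13810 windows in the table with a peak, 79.3% had one in all 6 libraries and 4.55% showed the latter pattern.

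The depth behind these calls is unknown, because the lists hold peak positions and no read counts. The lists held 34070 to 51643 peaks, with the longest 2 in immature B cells, and covered 21.5 to 36.9 Mb. A region that was not called is therefore not shown to be closed. Fewer cells with an open site and a site less open in every cell cannot be told apart in such bulk libraries. Of the genes of the sort gate, those of CD138 and TACI were counted, and those of B220 and IgM were not. Sdc1, which encodes CD138, had 9 and 9 regions in the plasma cell lists and 11 and 8 in those of immature B cells. Its counts in the pc-BMAC lists, 6 and 7, lay below all of these. Tnfrsf13b, which encodes TACI, had 8 and 8, 8 and 7, and 8 and 7, and did not separate the populations. Other markers, chosen after their values were seen, differed: Tnfrsf17, a plasma cell receptor gene, had 4 and 3 regions in the plasma cell lists, 2 and 1 in the immature B cell lists and 4 and 4 in the pc-BMAC lists. Fcer2a, a mature B cell gene, had 0 and 0, 5 and 4, and 1 and 0 in the same order. Other members of the same marker lists did not all follow. The plasma cell markers Irf4 (3 and 3, 4 and 4, and 3 and 3) and Prdm1 (12 and 11, 14 and 16, and 13 and 12) were highest in immature B cells. Of the B cell markers, Blk had 5 and 5, 8 and 7, and 8 and 7. Ebf1 had 25 and 29, 33 and 32, and 24 and 18, and Pax5 10 and 8, 15 and 14, and 7 and 5. Regions of the 9 plasma cell markers together numbered 52 and 49, 51 and 46, and 50 and 47. Regions of the 10 B cell markers numbered 54 and 54, 80 and 73, and 52 and 39, and their part in the class II results was not tested. Dendritic cells and macrophages also use MHC class II. The 10 dendritic cell markers had 24 to 37 regions per list, with Clec9a, Clec10a and Cd209a at 0 in every list. Itgax had 1 and 1, 5 and 3, and 0 and 0, and Siglech 3 and 2, 7 and 7, and 1 and 2. Flt3 had 6 and 6, 11 and 10, and 8 and 6, and Xcr1 1 and 1, 2 and 2, and 2 and 2. Zbtb46 had 8 and 7, 7 and 5, and 8 and 7, and Batf3 5 and 5, 4 and 5, and 5 and 7. Bst2 had 2 and 2, 1 and 1, and 1 and 1. The 12 markers of monocytes, macrophages and neutrophils had 22 and 24, 25 and 25, and 20 and 15, the 10 T and NK cell markers 15 and 15, 15 and 13, and 13 and 9, and the 7 erythroid markers 10 and 5, 4 and 4, and 4 and 3. The reference is the C57BL/6J genome, whose MHC alleles differ from those of Balb/c, and its effect on mapping, shared by all libraries, was not tested.

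Of the 10 genes, 9 had at least 1 region called in each list; the exception was H2-DMb1, with 0 regions in either pc-BMAC list. The immature B cell lists had more of the regions than any other list. Of the 42 regions, plasma cells 1 and 2 had 28 and 28, immature B cells 1 and 2 had 36 and 37, and pc-BMACs 1 and 2 had 28 and 20. As shares, these are 66.7% and 66.7%, 85.7% and 88.1%, and 66.7% and 47.6%, against 52.8% and 51.3%, 73.8% and 64.9%, and 56.3% and 48.8% of all assigned regions. Both immature B cell libraries lay above every other library, while pc-BMACs 1 matched the plasma cells and pc-BMACs 2 stood below them. Regions called in all 6 libraries numbered 18 (42.9%), against 30.6% of all assigned regions. The pair of immature B cell lists had 5 regions to itself (11.9%, against 13.6%), and the pairs of plasma cell and pc-BMAC lists had 0 each. With 2 libraries against 2, the smallest two-sided exact permutation p is 0.333, so no p is given for any comparison.

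**Figure D1:**
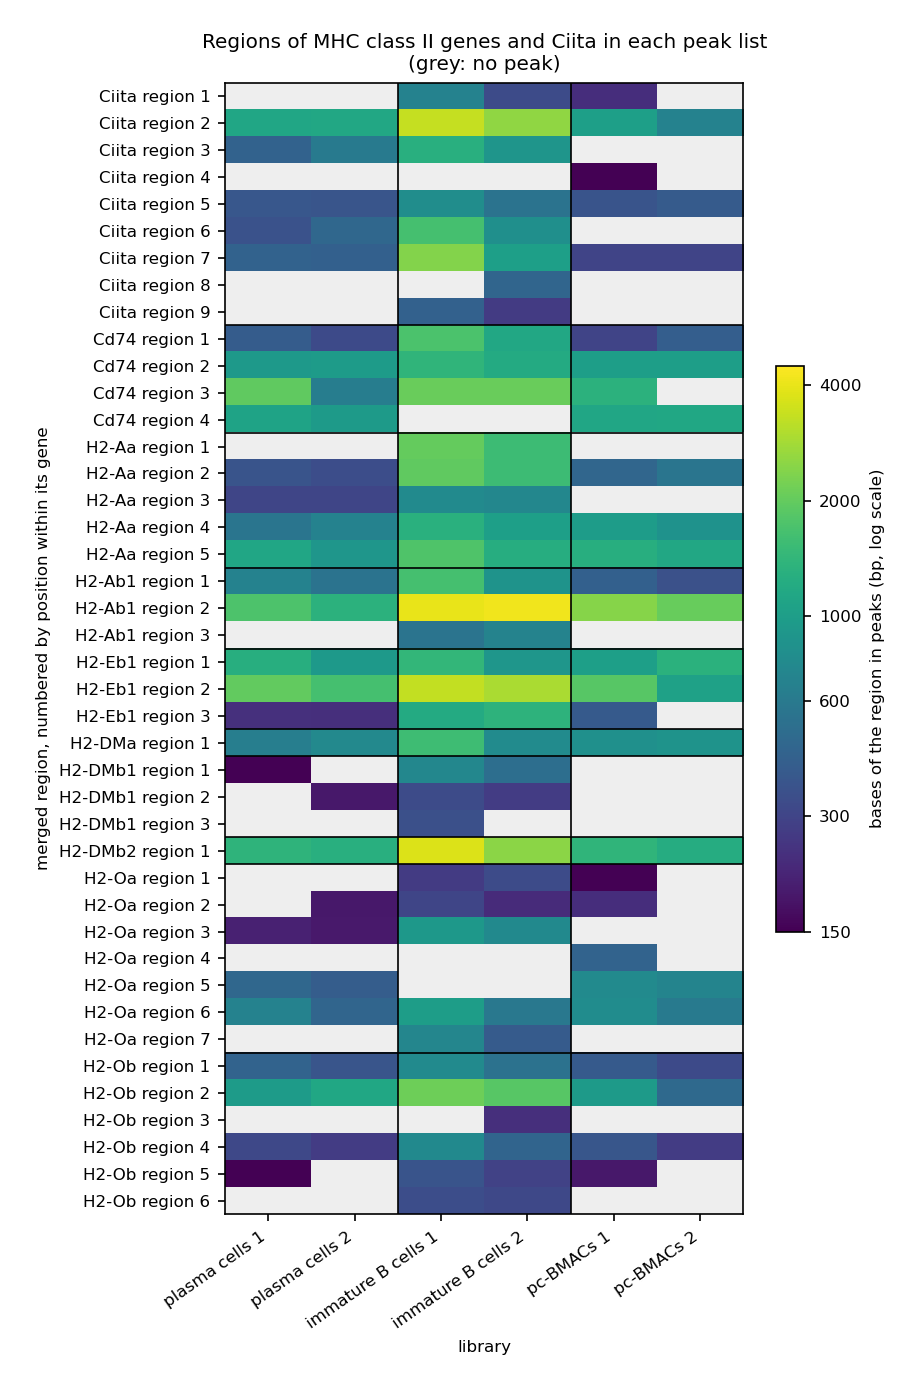
Each row is 1 of the 42 merged regions, numbered by position within its gene, each column is a library, and the colour gives the bases of the region that lie in peaks of that library (bp, log scale), with grey for no peak. The immature B cell columns have 36 and 37 coloured rows, and H2-Oa region 5 and Cd74 region 4 are the rows that are grey there and coloured in the 4 others.

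The regulator Ciita had 9 regions, 8 of them inside the gene (chr16:10480014-10531064). The plasma cell lists had 5 and 5 of them, the immature B cell lists 7 and 8, and the pc-BMAC lists 5 and 3. Regions 2, 5 and 7 were called in all 6 lists. Region 3 (chr16:10495346-10496624) and region 6 (chr16:10508130-10509774) were called in plasma cells and immature B cells and in neither pc-BMAC list. Peaks covered 440 and 598 bp of region 3 in plasma cells, 1279 and 880 bp in immature B cells and 0 and 0 bp in pc-BMACs. For region 6 the bases were 353 and 466 bp, 1645 and 819 bp, and 0 and 0 bp in the same order. At both, the populations did not overlap, with immature B cells highest. Region 9 (chr16:10522803-10523235) was called in the immature B cell lists alone, with 433 and 271 bp, and region 1, which lies 3450 bp outside the gene, in those lists and pc-BMACs 1. Region 4 was called in pc-BMACs 1 alone and region 8 in immature B cells 2 alone.

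Within Ciita region 2 (chr16:10487159-10490502) the 3 populations had peaks of different shape. Immature B cells had a single peak each, of 3344 and 2554 bp, over most of the region. Plasma cells had a peak of 684 and 692 bp near the lower end and another at chr16:10488724-10489165 in library 1 and chr16:10488660-10489127 in library 2. pc-BMACs shared the first, with 537 and 405 bp, but had their other peak at chr16:10489554-10490040 in library 1 and chr16:10489617-10489890 in library 2. No plasma cell peak overlapped that site and no pc-BMAC peak overlapped the plasma cell site, in either library of each. Both sites lie inside the immature B cell peaks. Merging all 6 lists therefore joins them into a region called everywhere. When the 4 plasma cell and pc-BMAC lists were merged alone, the sites counted as 1 region of each population. Which of the alternative promoters of Ciita lie here was not examined, since the table gives no transcript positions.

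**Figure D2:**
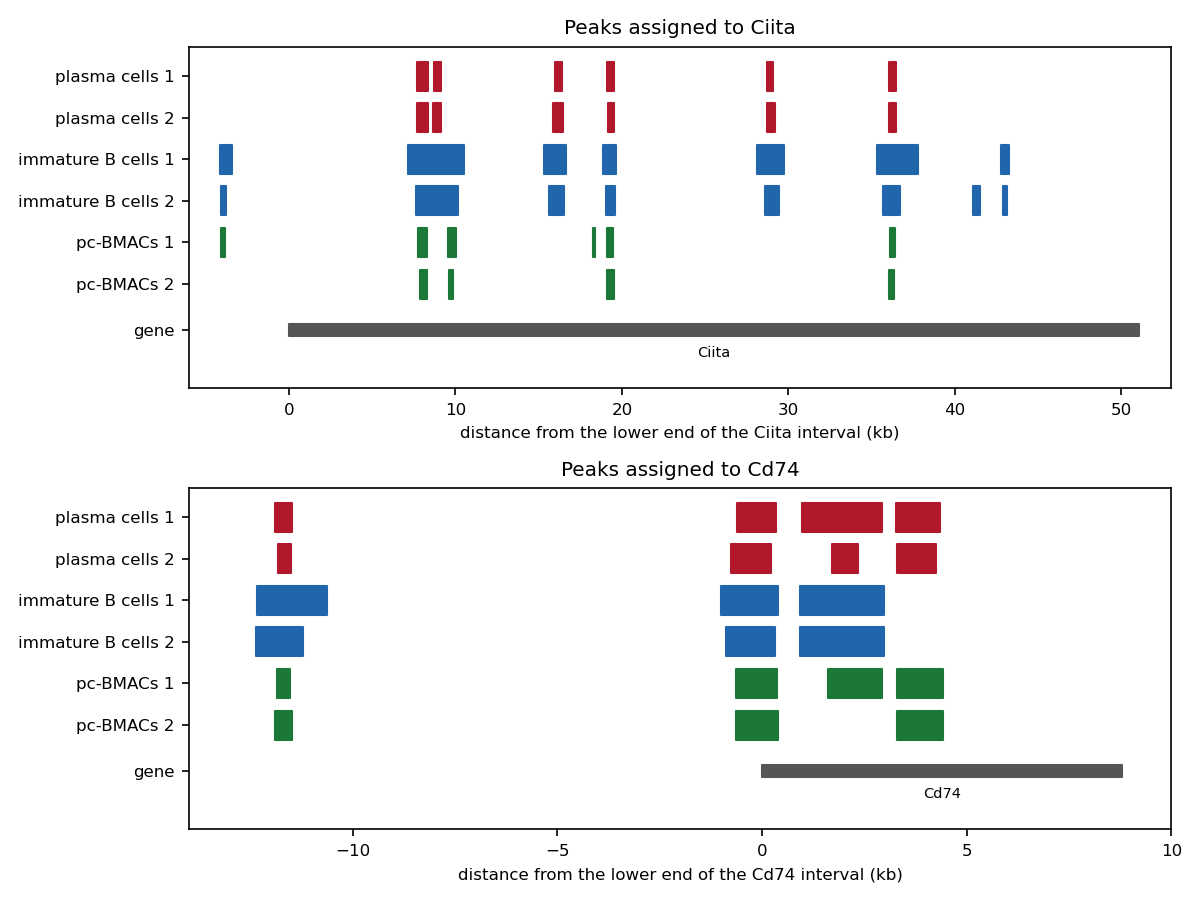
Bars are peaks assigned to Ciita (top) and Cd74 (bottom) in each library, placed by distance from the lower end of the gene interval (kb), with the gene as a grey bar. At Ciita the second bar of the pair near 10 kb sits farther right in both pc-BMAC lists than in both plasma cell lists, and at Cd74 the rightmost bar is missing from both immature B cell lists.

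Cd74, the invariant chain gene (chr18:60803849-60812652), went partly the other way. It had 4 regions, of which the plasma cell lists called 4 and 4, the immature B cell lists 3 and 3, and the pc-BMAC lists 4 and 3. Region 4 (chr18:60807127-60808280), inside the gene, held 1079 and 960 bp of peak in plasma cells and 1121 and 1138 bp in pc-BMACs, and 0 and 0 bp in immature B cells. The immature B cell peaks ended before it, in region 3, where they covered 2058 and 2070 bp. There plasma cells covered 1963 and 630 bp, and pc-BMACs 1329 and 0 bp, so plasma cell and pc-BMAC libraries differed within their own groups. Region 2, over the lower end of the gene, was widest in immature B cells, at 946 and 972 bp, 1388 and 1199 bp, and 1013 and 1011 bp. Region 1, 10627 bp outside the gene, held 401 and 320 bp in plasma cells, 1719 and 1147 bp in immature B cells and 303 and 412 bp in pc-BMACs.

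The classical chains H2-Aa, H2-Ab1 and H2-Eb1 form the peptide-presenting molecules I-A and I-E. H2-Aa (chr17:34282744-34287823) had 5 regions, of which the lists called 4 and 4, 5 and 5, and 3 and 3 in the same order. Region 1 (chr17:34281184-34283331), over the lower end of the gene and away from its start, was called in immature B cells alone, where it covered 2012 and 1540 bp. It is the widest of the 5 regions that both immature B cell lists alone had; the other 4 are Ciita region 9, H2-Ab1 region 3, H2-Oa region 7 and H2-Ob region 6. Region 3 (chr17:34291287-34292077), 3464 bp outside the gene, held 306 and 307 bp in plasma cells, 768 and 726 bp in immature B cells and 0 and 0 bp in pc-BMACs.

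The start of H2-Aa lies in its region 2 (chr17:34286564-34288528), which all lists called. It held 365 and 333 bp in plasma cells, 1965 and 1549 bp in immature B cells and 464 and 563 bp in pc-BMACs. The plasma cell peaks covered 249 and 204 of the 300 bases of the start window. Both pc-BMAC libraries had a peak there too, of 314 and 339 bp, and a small one inside the gene at chr17:34286636-34286785 and chr17:34286606-34286829, where no plasma cell list had a peak. Both immature B cell peaks covered or overlapped that second site.

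H2-Ab1 (chr17:34263227-34269418) had 3 regions, of which 2 were called in every plasma cell and pc-BMAC list and 3 in both immature B cell lists. Region 2 (chr17:34261199-34265480), over the lower end of the gene, held 1740 and 1343 bp in plasma cells, 3993 and 4178 bp in immature B cells and 2436 and 2029 bp in pc-BMACs. The populations did not overlap here, with pc-BMACs between the others. H2-Eb1 (chr17:34305867-34316674) also had 3 regions. Region 2 (chr17:34304244-34307516), over its start, held 1984 and 1641 bp, 3273 and 2919 bp, and 1867 and 1052 bp in the same order. Its region 3, inside the gene, was narrow in plasma cells (240 and 238 bp), wide in immature B cells (1195 and 1348 bp), and 392 and 0 bp in pc-BMACs.

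The peptide exchange genes differed from each other. H2-DMa, the alpha chain, had 1 region in the count (chr17:34135270-34136838), called in all lists at 639 and 739 bp, 1569 and 776 bp, and 828 and 864 bp. A 2nd RefSeq start window of this gene had no peak in any list. The 1st lies in a wide region that also overlaps Brd2, a chromatin reader gene, and was assigned to it because the overlap was larger, and all 6 lists covered that window whole. H2-DMb2 had 1 region (chr17:34142336-34146089), which held 1377 and 1286 bp, 3754 and 2492 bp, and 1381 and 1235 bp. H2-DMb1, its neighbour, had 3 regions and none was called in a pc-BMAC list. Its start region (chr17:34152642-34153368) held 150 and 0 bp in plasma cells, 727 and 516 bp in immature B cells and 0 and 0 bp in pc-BMACs. Its other regions were outside the gene, 1 of them with 0 and 188 bp, 326 and 275 bp, and 0 and 0 bp, and 1 in immature B cells 1 alone.

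The 2 chains of H2-O, the restraint on H2-DM, also differed. H2-Ob (chr17:34238905-34245908) had 6 regions, 3 called in all lists, with 4 and 3, 5 and 6, and 4 and 3 called in the order plasma cell, immature B cell and pc-BMAC lists. Region 2 (chr17:34238375-34240490), over its start, held 967 and 1136 bp, 2116 and 1865 bp, and 957 and 479 bp. H2-Oa (chr17:34092379-34095234) had 7 regions, of which 3 and 4, 5 and 5, and 5 and 2 were called, and 1 was in all lists. Its start region 3 (chr17:34092133-34093047) held 205 and 190 bp in plasma cells, 915 and 749 bp in immature B cells and 0 and 0 bp in pc-BMACs. The peaks of plasma cells 1 and 2 in it, chr17:34092283-34092487 and chr17:34092566-34092755, do not overlap each other, so merged with the pc-BMAC lists alone they are regions of 1 library each. Its region 5 (chr17:34098680-34099442), 3446 bp outside the gene, was, besides Cd74 region 4, called in the 4 plasma cell and pc-BMAC lists and in neither immature B cell list, with 467 and 409 bp in plasma cells and 763 and 695 bp in pc-BMACs.

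**Figure D3:**
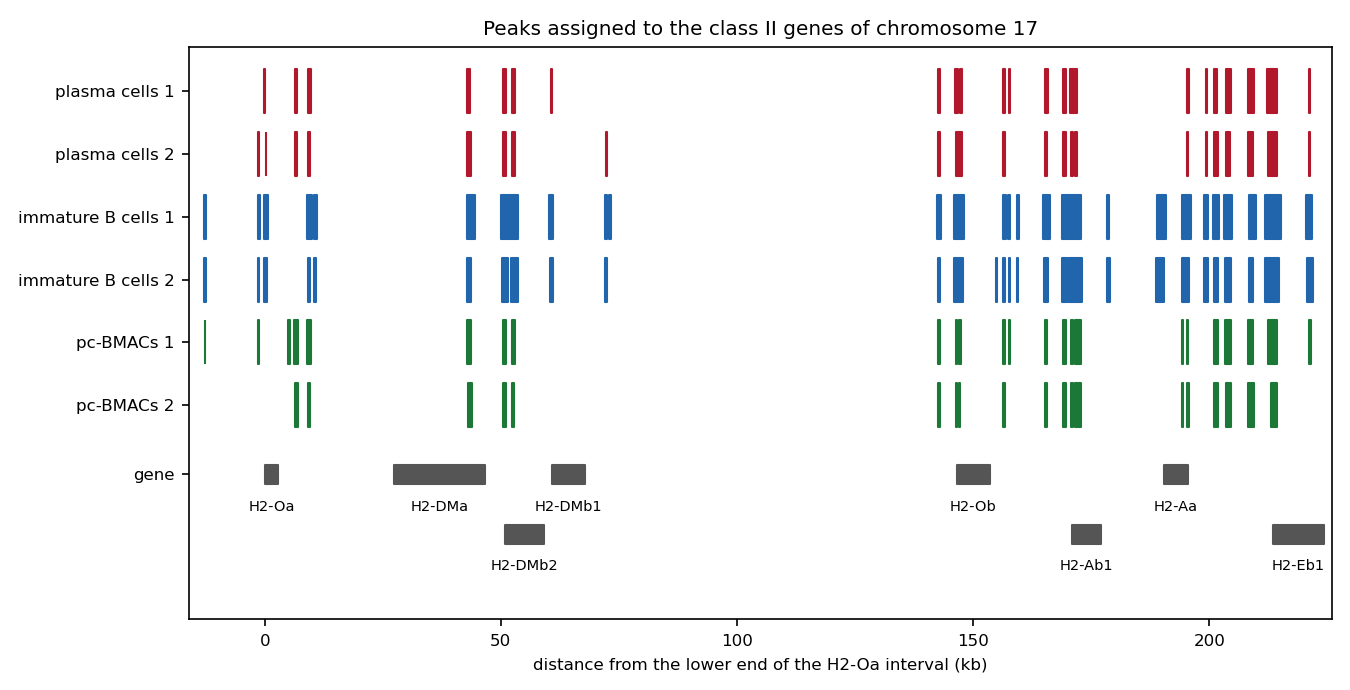
Bars are the peaks assigned to the 8 class II genes of chromosome 17 in each library, placed by distance from the lower end of the H2-Oa interval (kb), with genes as grey bars; peaks assigned to other genes are not drawn. Immature B cell bars are the widest at most sites, and no pc-BMAC bar lies at the start of H2-DMb1 or of H2-Oa.

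Between pc-BMACs and plasma cells, 34 member regions had a peak in a list. A peak in both pc-BMAC lists with no peak in plasma cells occurred at 0 of them, against 8.48% of all regions of the comparison. The opposite pattern held for 4 (11.8%), against 8.99% of all regions: Ciita regions 3 and 6, H2-Aa region 3 and H2-Oa region 3. The latter share is near the background. Without pc-BMACs 2, the shortest list, the pc-BMAC count was 4, where the share of all regions was 18.0%. With the 4 lists merged alone there were 44 member regions and the counts were 2 for pc-BMACs (against 8.41%), the Ciita and H2-Aa sites described above, and 4 for plasma cells (against 9.26%).

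Between plasma cells and immature B cells, 7 of 40 member regions (17.5%) were called in immature B cells only, against 18.4% of all regions, and 2 (5.0%) in plasma cells only, against 6.46%. The 7 were Ciita regions 1 and 9, H2-Aa region 1, H2-Ab1 region 3, H2-Oa regions 1 and 7, and H2-Ob region 6. In the full lists both shares are near the background. With the 4 lists merged alone the counts were again 7 and 2, against 18.2% and 6.72%. The background depends on list length. With each list cut to its widest 34070 peaks there were 40 member regions over all lists. Of these, 8 were then in immature B cells only (9.74% of all regions) and 2 in plasma cells only (10.0%). Between pc-BMACs and immature B cells, 11 of 42 (26.2%) were in immature B cells only, against 23.0%, and 2 (4.76%) in pc-BMACs only, against 10.5%. Without pc-BMACs 1 the immature B cell count was 17, where the share of all regions was 28.9%. Without pc-BMACs 2 the pc-BMAC count was 4, where that share was 16.6%. In the lists of 34070 peaks, 12 regions were in immature B cells only (15.1% of all regions) and 2 in pc-BMACs only (16.1%). The percentages for these cut lists are over the regions of the 4 lists compared, while the 40 members are over all 6. So 8 and 12 of at most 40 members stand beside 9.74% and 15.1%, and nearness to the background is stated for the full lists only. In the full lists the 2 regions missing from immature B cells were the same in both comparisons, Cd74 region 4 and H2-Oa region 5. Both comparisons share the immature B cell lists.

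In the full lists, peak width differed more than peak presence. In the 18 regions called in all 6 libraries, the bases in peaks had a median over regions of 675 and 710.5 bp in plasma cells, 1682 and 1086.5 bp in immature B cells and 892.5 and 638.5 bp in pc-BMACs. Over all 20029 assigned regions called in all libraries, the medians were 717 and 707 bp, 1040 and 772 bp, and 915 and 775 bp. The ratio of the member median to the overall one was 0.941 and 1.0, 1.62 and 1.41, and 0.975 and 0.824, so both immature B cell libraries exceeded the other 4 after each library's own median was set to 1.

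Immature B cells were wider than plasma cells by a median log2 ratio of 0.91 (1.88-fold) over the 18 regions, against 0.30 (1.23-fold) over all regions. Over the 4 pairs of an immature B cell and a plasma cell library the median ran from 0.54 to 1.2 (log2), where that of all regions ran from 0.1 to 0.45. Both immature B cell libraries exceeded both plasma cell libraries at 16 of 18 regions (88.9%), against 54.4% of all regions. The reverse held at 0, against 6.81%, and at 2, H2-Eb1 region 1 and H2-Oa region 6, the libraries overlapped. Against pc-BMACs the median log2 ratio was 0.88 (1.84-fold), from 0.62 to 1.34 over the library pairs, and 0.08 over all regions, from -0.16 to 0.33. Both immature B cell libraries were wider at 14 of 18 (77.8%), against 29.5% of all regions, and 0 were narrower, against 17.9%. H2-Aa region 2 had the highest ratio to plasma cells, 5.03-fold, and Ciita region 7 (chr16:10515362-10517770) the highest to pc-BMACs, 5.69-fold, with 437 and 424 bp, 2409 and 1026 bp, and 301 and 303 bp. Between plasma cells and pc-BMACs the median log2 ratio was -0.05, from -0.12 to 0.06 over the library pairs, and -0.2 over all regions, with plasma cells wider at 4 and narrower at 6 of 18, against 8.71% and 50.1% of all regions.

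**Figure D4:**
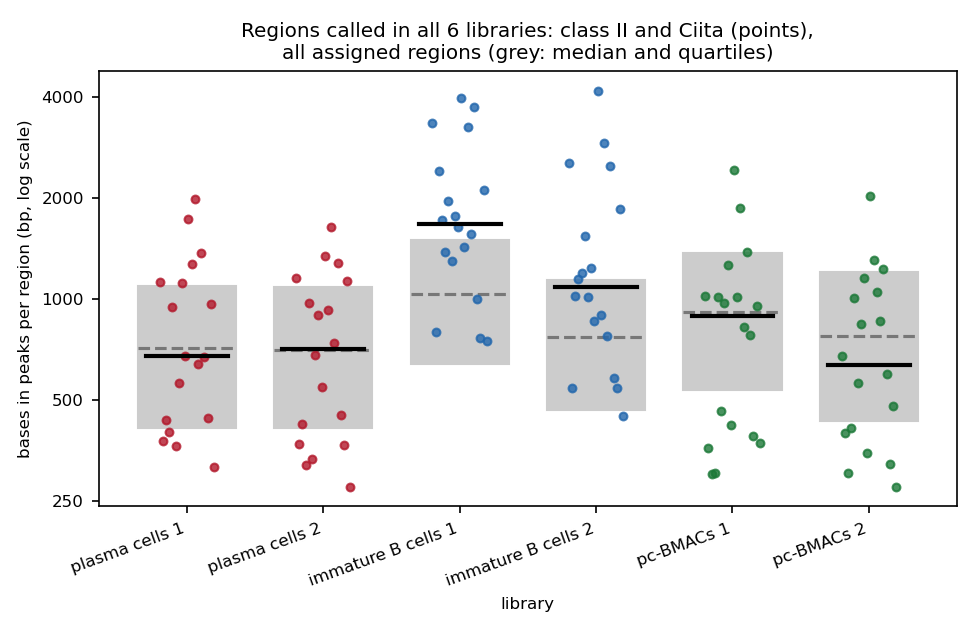
Points are the 18 class II and Ciita regions called in all 6 libraries, by library and by bases in peaks (bp, log axis), with a black line at their median; the grey box and dashed line give the quartiles and median of the 20029 assigned regions called in all libraries. The black line lies above the dashed line in both immature B cell libraries and at 0.824 to 1.0 times it in the other 4.

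At 3 of these 18 regions immature B cells had 1 peak per library and the 4 other libraries had at least 2 each: Ciita region 2, H2-Eb1 region 2 and H2-Ob region 2. This held for 0.31% of all regions called in all libraries, and was chosen for description after the peaks were seen. The 3 regions are 3344, 3273 and 2116 bp wide. That share is over regions of every width and was not taken over regions as wide as these. At H2-Ob region 2 immature B cells had peaks of 2116 and 1865 bp. The 2 peaks in the region had 650 and 317 bp in plasma cells 1, 636 and 500 bp in plasma cells 2, 406 and 551 bp in pc-BMACs 1, and 236 and 243 bp in pc-BMACs 2.

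The rest of the pathway was examined from lists of genes. The 12 genes of other class II chains and antigen processing, such as cathepsins and the thiol reductase Ifi30, had 78 regions, of which 24 (30.8%) were in all lists. Between pc-BMACs and plasma cells 4 and 3 of 59 (6.78% and 5.08%, against 8.48% and 8.99% of all regions) were called in pc-BMACs only and in plasma cells only. Immature B cells had 17 of 72 (23.6%, against 18.4%) that plasma cells lacked and 19 of 75 (25.3%, against 23.0%) that pc-BMACs lacked, shares near the background. Cd83, which stabilises surface class II, had 8 and 8 regions in the plasma cell lists, 16 and 14 in the immature B cell lists and 9 and 7 in the pc-BMAC lists. Marchf1, a ubiquitin ligase that lowers surface class II, had 7 and 4, 12 and 12, and 6 and 5. Lgmn, an asparaginyl protease of the endolysosome, had 4 and 6, 9 and 6, and 8 and 7, with 3 regions in pc-BMACs and not plasma cells. The 1 region of Ifi30 also had that pattern, with 0 and 0, 1 and 1, and 1 and 1 called.

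Factors that bind the class II promoters had 39 regions in 10 of 11 genes, 16 (41.0%) of them in all lists. The X box genes Rfxap and Rfxank had 1 region each, called in all lists. Rfx5, the other X box gene counted, had 2 regions. The plasma cell lists called 1 and 1 of them, the immature B cell lists 2 and 2, and the pc-BMAC lists 1 and 1. Between pc-BMACs and plasma cells 2 and 1 of 24 (8.33% and 4.17%, against 8.48% and 8.99%) differed, with Nfyc and Ep300 giving the pc-BMAC regions and Creb1 the plasma cell region. Of the 13 regulators of Ciita, with 153 regions, Pax5, the B cell identity factor, had 10 and 8 regions, 15 and 14, and 7 and 5 in the same order. Prdm1, which encodes the repressor Blimp-1, had 12 and 11, 14 and 16, and 13 and 12, and Irf2 19 and 18, 20 and 15, and 18 and 16. Over this list 11 and 15 of 120 regions (9.17% and 12.5%, against 8.48% and 8.99%) were called in pc-BMACs only and in plasma cells only.

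The class I pathway, which includes genes within the class II cluster, had 42 regions, 22 (52.4%) in all lists. The plasma cell lists had 27 and 27 of them, the immature B cell lists 32 and 32, and the pc-BMAC lists 34 and 30. Between pc-BMACs and plasma cells 2 of 35 (5.71%, against 8.48%) were in pc-BMACs only and 0 in plasma cells only, against 8.99%. Tap1 and Psmb9, between H2-DMb1 and H2-Ob, had all of their 2 and 3 regions in all lists. Tap2, the partner of Tap1 in the peptide transporter, had 5 regions, of which 3 were called in all lists, 1 in all but the immature B cell lists and 1 in those alone. Pdia3, a chaperone of class I loading, had 0 and 0 regions in the plasma cell lists, 2 and 2 in the immature B cell lists and 1 and 0 in the pc-BMAC lists. Nlrc5, the class I counterpart of Ciita, had 8 and 7, 8 and 9, and 10 and 10 regions in that order, where Ciita had 5 and 5, 7 and 8, and 5 and 3. The difference between these genes was not tested.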

How the data were processed

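Each ATAC-seq library came with 1 deposited list of peak positions. Per the submitters' processing notes the work involved mm10, bedtools, HOMER 4.10 and Bowtie2 2.3.3, with no role stated. Peak caller settings: not given in the sources used here. A score deposited by the authors is 1000 for each peak and was left aside. Peaks are at least 150 bp wide. Peaks were merged, called and assigned with Python 3.11.15, numpy and pandas, checked on simulated peaks. A region tied between genes went to the one with the larger overlap, then to the first symbol (2101 regions). The RefSeq table of gene intervals gives no strand or exons, so only overlap with a gene is stated. Starts are named only for genes that have a RefSeq start window. A region was called only in a population when both of its libraries and neither of the other's had a peak in it. All 10 genes are named, and up to 3 genes of each other list, those with most such regions. Tap1, Psmb9, Rfxap, Rfxank, Rfx5, Ifi30 and the markers given by name were added after their values were seen. The members and lists were chosen with earlier results of these data known. Peak widths and the merging of 4 lists alone were examined after the data were seen. Alternatives changed overlap, merging, list length, distance, gene types and libraries. No depth, so no counting interval, could be given.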

Additional observations from a re-analysis of the deposited data

How the results depend on the processing

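No paired analysis was possible because the populations compared share only 1 R number, which leaves a single pair of libraries per comparison. The meaning of the R numbers is not stated, and no model was fitted. Values of that single pair of libraries are given as a description. Shares of all regions stand in brackets. When peaks had to cover 50% of a region, the count in all 6 lists was 3, plasma cells 1 and 2 had 9 and 10, pc-BMACs 1 and 2 had 16 and 9, and the immature B cell only counts were 20 against plasma cells (25.7%) and 19 against pc-BMACs (24.7%), while pc-BMACs and plasma cells had 1 (15%) and 0 (6.9%) against each other. With only regions that overlap a gene there were 21 members, 10 in all libraries, 2 (16.1%) and 1 (6.79%) for immature B cells and plasma cells, and 6 (19.6%) and 1 (11.4%) for immature B cells and pc-BMACs. With the widest 17035 peaks there were 27 members, 9 in all libraries, and 1 plasma cell only region against immature B cells (8.37%). The immature B cell only counts were then 7 against plasma cells (7.73%) and 12 against pc-BMACs (11.3%). With genes of any kind the counts were 3 for immature B cells against plasma cells (18.9%), and 1 and 1 for plasma cells and pc-BMACs against immature B cells (6.35% and 10.3%). In the pair that shares an R number the counts were 8 for plasma cells against pc-BMACs (21.8%), 11 for immature B cells against plasma cells (30.8%), and 4 for pc-BMACs against immature B cells (18.0%). With the 4 lists merged alone, pc-BMACs had 2 regions against plasma cells (8.41%). Leaving out 1 library gave 0 to 4 pc-BMAC only (4 without pc-BMACs 2, 18.0%) and 4 to 6 plasma cell only regions; 2 to 4 pc-BMAC only (4 without pc-BMACs 2, 16.6%) and 11 to 17 immature B cell only regions (17 without pc-BMACs 1, 28.9%); and 8 to 9 immature B cell only regions against plasma cells. The cause of these differences was not tested. The median log2 width ratio of immature B cells to plasma cells was 0.57 after division by each library's median (all regions -0.04) and 0.69 to 1.14 without 1 library; to pc-BMACs it was 0.61 to 1.13. Background regions within the members' range of bases in plasma cells (295.5 to 1812.5 bp) had medians of 0.27 and 0.07. That range holds 16424 of the 20029 regions, so these medians add little to those of all regions and do not match widths. Plasma cells over pc-BMACs gave 0.18 after that division, 0.06 in the pair that shares an R number and -0.11 to 0.03 without 1 library, so its sign is not settled.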
